A study of Arabidopsis thaliana with 24 samples.

Results

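The comparison described here set whole Arabidopsis thaliana seedlings harvested in the evening of 2 outdoor seasons against each other, natural LD (2014) against natural LD (2013), both at zeitgeber time 16 (ZT16). Libraries were chosen by their titles, which gave 3 per season and 6 of the 24 in the series. Seedlings were 14 days old and had been stratified and then grown on soil in an open outdoor cage, in June 2013 or in July 2014. In both seasons the cage was shaded by layers of a garden fabric that made the light dimmer without shifting its red to far-red ratio. The labels used here name no strain or mutant, and the library names carry the mark wt. The other 18 libraries were the morning samples of the same seasons at ZT4 and 2 indoor long-day settings, lab LD and LD+FR+TEMP, at both times. Sequencing covered the 3′ ends of polyadenylated RNA, so counts were not divided by transcript length.

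Total counts ran from 6543615 to 7821026 in the 3 evening libraries of 2013 and from 9681843 to 10711582 in those of 2014, so the seasons did not overlap in depth. The first principal component of the 6 libraries held 40.8% of the variance and put the 2013 libraries between -30.4 and -22.4 and the 2014 libraries between 24.3 and 30.2. Season cannot be told apart here from month, sowing, harvest or depth. Nothing in the labels says that replicates were separate sowings, and the spread that the p-values rest on may therefore be technical. All p-values below come from edgeR's quasi-likelihood test, fitted to all 24 libraries and adjusted after Benjamini and Hochberg over 18797 genes, with calls at 0.05. Levels are CPM values, library-size-scaled counts with the TMM method, and differences are log2 values of 2014 minus 2013 with their standard error.

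Plants take iron, sulfate, phosphate and nitrate from the soil, and each of these nutrients has genes whose transcripts change with its supply. The iron, sulfur and phosphate lists below follow the response to shortage, and the nitrate list follows the response to nitrate. In Arabidopsis, iron shortage raises transcripts of basic helix-loop-helix (bHLH) factors, which act on genes for ferric reduction, iron uptake and the secretion of coumarins that mobilise iron. Sulfur shortage raises transcripts of sulfate reduction enzymes and of the LSU and SDI genes, and the time of day moves many of these transcripts too.

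In the evening 969 of 18797 genes were called, which is 5.16% of those tested. Of these, 531 were higher in 2014 (2.82%) and 438 were lower (2.33%), and the median difference over all genes was 0.006 on the log2 scale. The change reached 2-fold in 134 of the higher genes (0.713%) and in 125 of the lower ones (0.665%). The CPM values of the seasons did not overlap in 949 of the called genes. Over all genes tested, 5072 (27.0%) did not overlap. The number called fell to 523, 339 or 594 without replicate 1, 2 or 3 of 2013, to 551 or 423 without replicate 1 or 2 of 2014, and to 849 without replicate 3 of 2014. Called in all 6 of these fits were 264 genes, 27.2% of the 969, of which 134 were higher and 130 lower. With all libraries thinned to 6543615 counts, 799 were called.

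**Figure D1:**
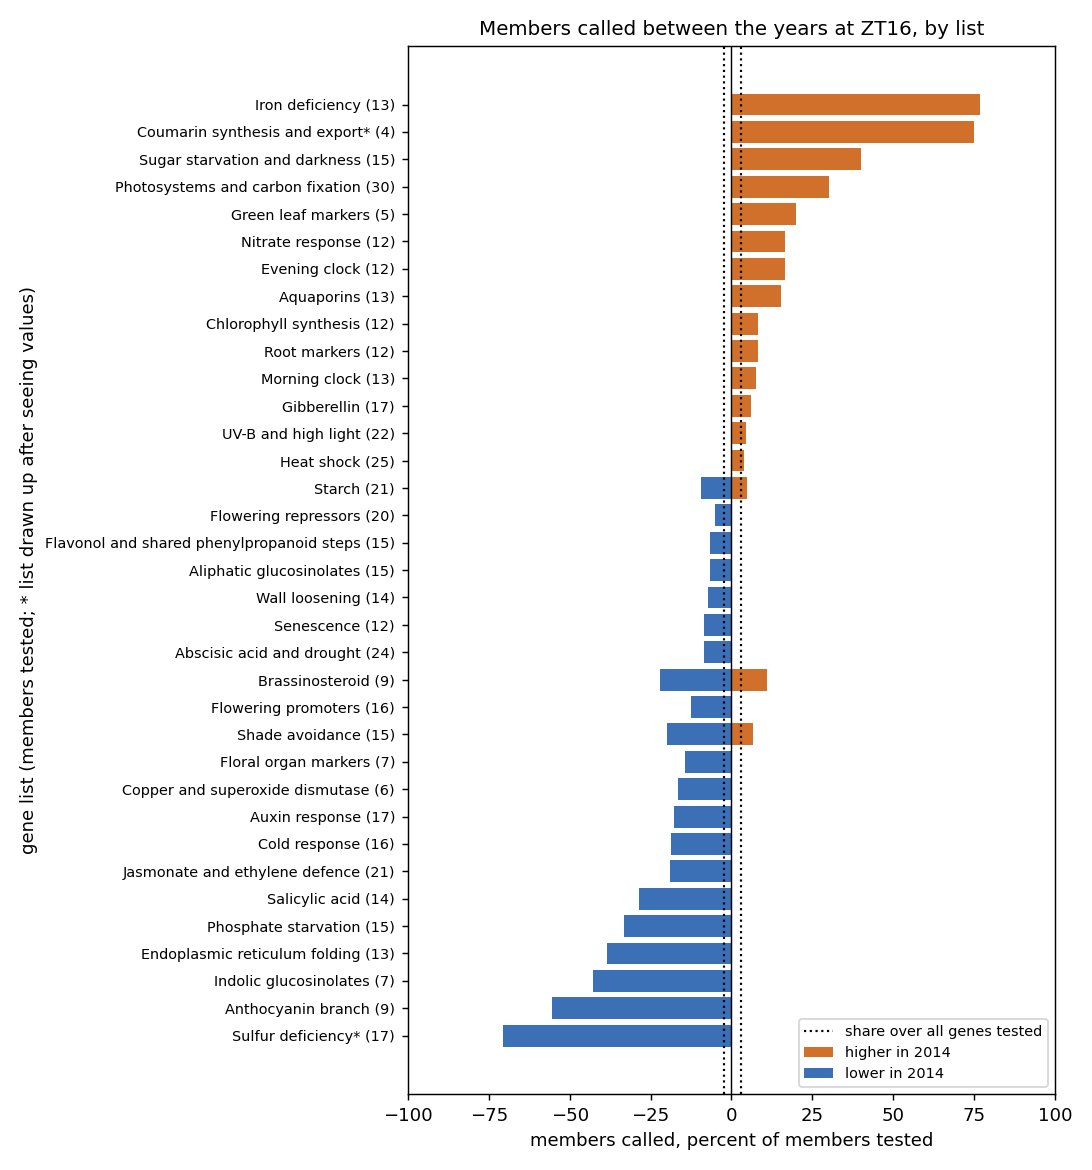
Share of the tested members of each gene list that were called in the evening, in percent (x axis), with members higher in 2014 to the right in orange and members lower in 2014 to the left in blue. Dotted lines mark the shares over all genes tested, 2.82% higher and 2.33% lower, and lists with no called member are not drawn. The iron list extends farthest to the right, with 10 of 13 members, and the sulfur list farthest to the left, with 12 of 17. An asterisk marks lists drawn up after the values were seen, the sulfur list among them.

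Iron-deficiency genes were higher in the evening of 2014. This list was drawn up with earlier results of these data known, as were those below unless a later origin is given. Shares of list members set beside those of all genes are therefore descriptions. Of 14 members on the list 13 were tested, 10 were called higher against 2.82% of all genes, none was lower, and the median difference of the list was 2.12. The summed level of the list was 86.3 to 115 CPM in the 2013 libraries and 178 to 282 CPM in the 2014 libraries, against 126 to 146 CPM in the evening libraries of lab LD. All 3 libraries of 2014 lay above all 3 of 2013.

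The 4 bHLH genes of subgroup Ib act with the master regulator FIT in iron uptake, and they had some of the widest differences. BHLH39 read 0.722, 0.84 and 0.13 CPM in 2013 and 15.4, 3.46 and 6.01 CPM in 2014, a difference of 3.85 ± 0.89 (edgeR adjusted p = 0.0102). BHLH100 read 0.144, 0.12 and 0 CPM in 2013 and 17.5, 2.33 and 3.36 CPM in 2014, from 2 and 253 counts over the 3 libraries, a ratio of 91.8 with a 95% counting interval of 25.2 to 762 (edgeR adjusted p = 0.00791). BHLH101 read 0, 0.12 and 0.13 CPM and 4.85, 1.59 and 1.12 CPM, from 2 and 82 counts, a ratio of 29.8 with an interval of 7.98 to 250 (edgeR adjusted p = 0.00326). These intervals cover counting error only. In all 3 genes the seasons did not overlap, and replicate 1 of 2014 was the highest library. BHLH38 read 1.73, 0.48 and 0.13 CPM in 2013 and 12, 1.68 and 2.75 CPM in 2014, and 1 library of 2013 lay above the lowest of 2014 (difference 2.87 ± 1.00, edgeR adjusted p = 0.0976). FIT read 1.16, 1.2 and 1.04 CPM in 2013 and 1.17, 3.36 and 3.16 CPM in 2014, and its difference of 1.16 ± 0.40 did not pass (edgeR adjusted p = 0.0942), although without replicate 1 of 2014 (1.52) it did. The call of BHLH39 was lost without replicate 2 of 2013 (4.31), replicate 3 of 2013 (3.39) or replicate 1 of 2014 (3.03), and that of BHLH100 without replicate 2 of 2013 (6.63) or replicate 1 of 2014 (4.86), the log2 difference of each reduced fit standing in brackets. BHLH101 stayed called in each of the 6 fits, at 3.81 without replicate 1 of 2014. Its counts were few, and only 12 of the 17 alternative evening fits gave a test result for it.

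The 250 bases before the annotated start of these 4 genes are shown because the genes form 1 family whose 4 members all had a positive difference. They were read from the TAIR10.1 assembly with NCBI RefSeq's gene models, 5′ to 3′ on the coding strand, which is the minus strand for each. BHLH38 is at chr3:21085246-21085495, BHLH39 at chr3:21087711-21087960, BHLH100 at chr2:17199455-17199704 and BHLH101 at chr5:1139634-1139883, and no other annotated gene overlaps these windows. Capitals mark CACGTG, the G-box, a palindrome that many plant bHLH and bZIP proteins bind.
BHLH38: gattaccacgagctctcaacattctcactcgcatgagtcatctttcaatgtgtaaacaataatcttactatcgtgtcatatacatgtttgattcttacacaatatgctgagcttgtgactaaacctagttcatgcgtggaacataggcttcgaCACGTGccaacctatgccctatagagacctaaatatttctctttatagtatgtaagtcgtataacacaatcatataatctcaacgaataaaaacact
BHLH39: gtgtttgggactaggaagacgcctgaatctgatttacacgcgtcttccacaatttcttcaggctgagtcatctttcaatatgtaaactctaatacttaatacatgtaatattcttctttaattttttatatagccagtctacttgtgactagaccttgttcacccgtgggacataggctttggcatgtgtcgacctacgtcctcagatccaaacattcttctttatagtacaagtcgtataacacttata
BHLH100: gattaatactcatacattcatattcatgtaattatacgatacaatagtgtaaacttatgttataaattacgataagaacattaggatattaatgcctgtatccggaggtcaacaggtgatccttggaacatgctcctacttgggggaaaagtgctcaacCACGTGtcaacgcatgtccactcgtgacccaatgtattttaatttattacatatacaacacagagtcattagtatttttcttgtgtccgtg
BHLH101: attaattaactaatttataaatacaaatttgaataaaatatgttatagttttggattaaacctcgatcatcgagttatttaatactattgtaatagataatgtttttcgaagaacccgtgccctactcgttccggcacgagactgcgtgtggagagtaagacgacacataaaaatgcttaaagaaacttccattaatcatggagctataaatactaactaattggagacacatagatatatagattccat
A G-box lay 97 bases before the start of BHLH38 and 91 bases before that of BHLH100, and these letters are not in the other 2 windows. Of the 14 iron genes, 4 had it in such a window (BHLH38, BHLH100, OPT3 and BTS), which is 28.6%. Of the windows of 27438 protein-coding genes, 6.49% had it. A match is a description of the sequence and not a binding site.

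Among the regulators downstream, PYE, a bHLH factor that limits the iron response, read 8.09, 7.44 and 7.91 CPM in 2013 and 21.4, 18.8 and 13.9 CPM in 2014 (1.21 ± 0.22, edgeR adjusted p = 0.00124). BTS, a ubiquitin ligase that also restrains it, read 10.3, 6.84 and 6.74 CPM and 25.2, 15.2 and 14.2 CPM (1.21 ± 0.24, edgeR adjusted p = 0.00354). FRO2, the ferric reductase of the root surface, read 0.578, 2.04 and 1.3 CPM in 2013 and 5.3, 6.16 and 12.8 CPM in 2014 (2.57 ± 0.42, edgeR adjusted p = 0.000568). IRT1, the main iron uptake transporter, read 0.289, 3.96 and 1.17 CPM and 7.01, 5.04 and 13 CPM (2.12 ± 0.48, edgeR adjusted p = 0.00864). In all 4 of these genes the 2014 libraries lay above the 2013 libraries, but those of IRT1 in 2013 spread widely, and its call was lost without replicate 1 of 2013 (1.67), replicate 3 of 2013 (1.87) or replicate 3 of 2014 (1.66). Without replicate 2 of 2013 its difference was 3.45. The seasons were also apart in FRO3, a mitochondrial ferric reductase, at 3.76, 3.36 and 2.98 CPM and 20.8, 13.4 and 11 CPM (2.17 ± 0.32, edgeR adjusted p = 0.000171). ZIF1, a vacuolar transporter of the iron chelator nicotianamine, differed by 0.84 ± 0.17 (edgeR adjusted p = 0.00381). OPT3, which loads iron into the phloem, differed by 0.72 ± 0.21 (edgeR adjusted p = 0.0476), a call lost without any 1 of the 6 libraries, at values between 0.53 and 0.89. NAS4, a nicotianamine synthase, overlapped between seasons (0.36 ± 0.16, edgeR adjusted p = 0.201). The 3 FERRITIN genes of iron storage, whose transcripts rise with iron excess, were not called.

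**Figure D2:**
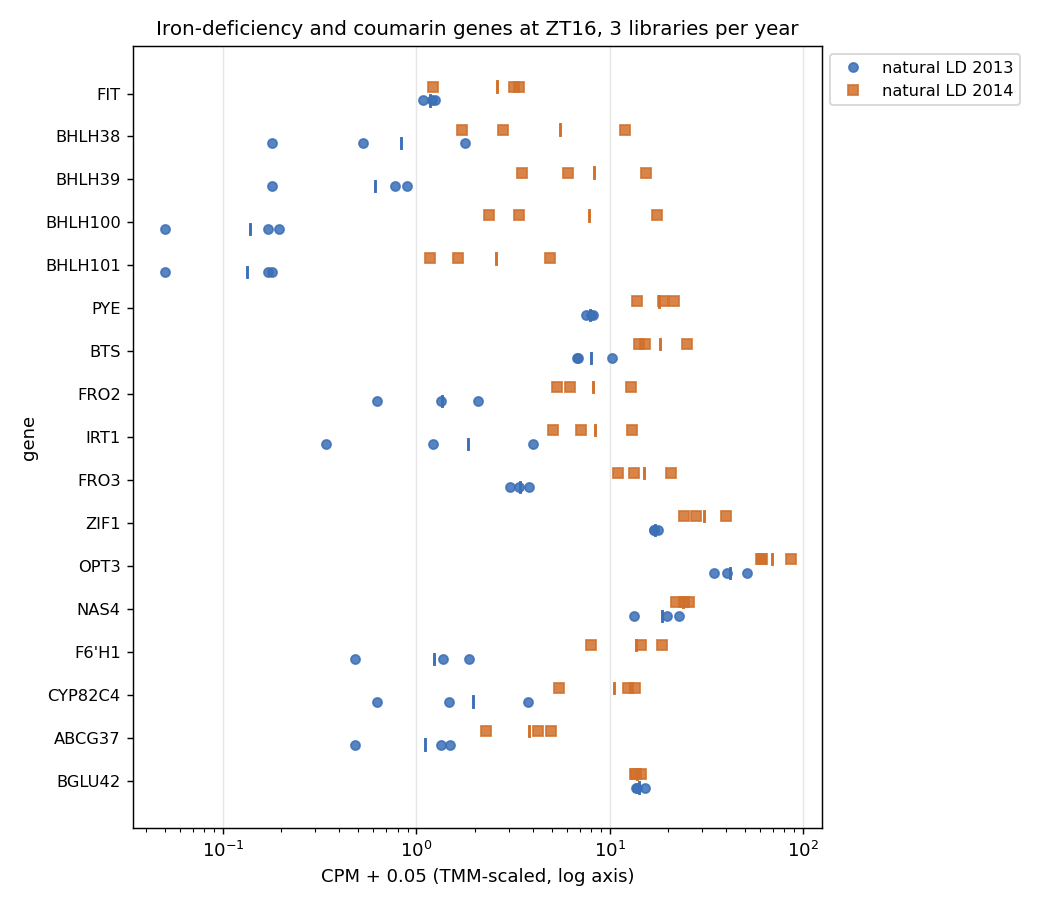
Evening level of iron-deficiency and coumarin genes in each library, as CPM + 0.05 on a log axis, with blue circles for the 3 libraries of 2013, orange squares for those of 2014 and a vertical tick at each mean. The seasons are apart for 10 iron genes and 3 coumarin genes and overlap for FIT, BHLH38, NAS4 and BGLU42.

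Genes of coumarin synthesis and export were higher too, on a list of 5 drawn up after the values were seen. Of 4 tested, 3 were called higher, against 2.82% of all genes, and 0 lower. F6'H1, the enzyme whose product leads to the coumarin scopoletin, read 0.433, 1.32 and 1.81 CPM in 2013 and 14.5, 7.94 and 18.5 CPM in 2014 (3.47 ± 0.44, edgeR adjusted p = 2.62e-05). CYP82C4, a cytochrome P450 that oxidises coumarins further, read 0.578, 3.72 and 1.43 CPM and 13.5, 5.42 and 12.4 CPM (2.39 ± 0.46, edgeR adjusted p = 0.0026). The exporter ABCG37 differed by 1.79 ± 0.32 (edgeR adjusted p = 0.00125). The seasons did not overlap in these 3, and each call held without each of the 6 libraries in turn. The glucosidase BGLU42 overlapped between the seasons, at 13.7, 15.2 and 13.6 CPM in 2013 and 13.5, 13.5 and 14.4 CPM in 2014. The regulator MYB72 had 0 counts in 2013 and 15 in 2014 and was too low to test. With 3 counts set for 2013 the ratio of 2014 to 2013 was 3.63, and its 95% counting interval from the true counts starts at 2.6. AT3G12900, annotated as a 2-oxoglutarate and Fe(II)-dependent oxygenase, read 0, 1.32 and 0.389 CPM in 2013 and 7.64, 4.11 and 9.48 CPM in 2014 (3.52 ± 0.56, edgeR adjusted p = 0.000437). Its difference was 5.04 without replicate 2 of 2013, and that of CYP82C4 3.34.

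Many of these iron and coumarin genes act in roots, so root markers are given beside them. Of 12 root markers tested 1 was called higher, against 2.82% of all genes, and 11 had a positive difference. The summed level of the 12 was 87.0 to 99.3 CPM in 2013 and 101 to 142 CPM in 2014. The called marker was TIP2;3, a tonoplast aquaporin, at 3.47, 4.32 and 5.44 CPM and 8, 38.1 and 22.2 CPM (2.36 ± 0.46, edgeR adjusted p = 0.00271). Without it the sums were 83.5 to 94.3 CPM and 92.6 to 115 CPM, which overlap, TIP2;3 differed by 1.75 without replicate 2 of 2014, and no other root marker had an adjusted p under 0.05. The part of root tissue in the iron result was not tested. In whole seedlings, fewer cells of a type and less RNA per cell cannot be told apart.

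Sulfur-deficiency genes moved the other way and were lower in the evening of 2014. This list of 18 was drawn up after the values were seen. Of 17 tested, 12 were lower, against 2.33% of all genes, none was higher, and the median difference was -0.97. Without any single evening library, 10 of the 12 stayed called. The LSU genes, small proteins whose transcripts rise strongly without sulfur, were called in all 4 copies. LSU1 read 12.3, 10.08 and 12.7 CPM in 2013 and 1.71, 2.43 and 3.77 CPM in 2014 (-2.16 ± 0.26, edgeR adjusted p = 1.54e-05). Its tandem neighbour LSU3 read 9.39, 10.4 and 9.85 CPM and 1.53, 0.84 and 1.94 CPM (-2.79 ± 0.33, edgeR adjusted p = 1.51e-05). LSU2 read 58.5, 60.5 and 60.7 CPM and 18.8, 17.37 and 27.7 CPM (-1.50 ± 0.17, edgeR adjusted p = 8.13e-06). No library of 2014 reached the lowest of 2013 in these genes. LSU4 differed by -1.68 ± 0.37 (edgeR adjusted p = 0.00823). How reads shared by similar copies were counted is not given in the sources used here.

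ATSDI1, a sulfur deficiency-induced protein known to lower glucosinolate synthesis, read 29.9, 34.7 and 26.3 CPM in 2013 and 2.7, 3.17 and 11.8 CPM in 2014 (-2.39 ± 0.30, edgeR adjusted p = 2.17e-05). Replicate 3 of 2014 was the highest of its season and still under every library of 2013, and without it the difference was -3.37. GGCT2;1, a cyclotransferase that breaks down glutathione, read 34.1, 31.1 and 31.4 CPM and 8.9, 6.72 and 10.6 CPM (-1.88 ± 0.20, edgeR adjusted p = 4.33e-06). SHM7, a serine hydroxymethyltransferase of the same response, differed by -0.93 ± 0.16 (edgeR adjusted p = 0.00116). The APS reductases APR1, APR2 and APR3 carry out the key step of sulfate reduction. APR1 read 70.8, 68.6 and 74.9 CPM in 2013 and 39.3, 30.5 and 32.5 CPM in 2014 (-1.07 ± 0.14, edgeR adjusted p = 3.26e-05). APR2 differed by -0.64 ± 0.12 and APR3 by -0.97 ± 0.14 (edgeR adjusted p = 0.00229 and 0.000191). The seasons did not overlap in any of these. SERAT3;2, a serine acetyltransferase, differed by -1.01 ± 0.21 (edgeR adjusted p = 0.00452) and lost its call without replicate 2 of 2013 (-0.87). SULTR4;1, which releases sulfate from the vacuole, differed by -0.48 ± 0.14 (edgeR adjusted p = 0.0444) and lost its call without replicate 1 of 2013 (-0.53), replicate 2 of 2013 (-0.51), replicate 3 of 2013 (-0.39), replicate 1 of 2014 (-0.50) or replicate 2 of 2014 (-0.38).

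Of the 17 tested members 5 were not called, namely EIL3, SULTR1;2, SULTR2;1, SULTR4;2 and BGLU28. The difference of BGLU28 was -0.37. EIL3, the transcription factor of the sulfur response, read 8.53, 7.68 and 7 CPM in 2013 and 6.92, 6.63 and 9.17 CPM in 2014. The sulfate transporters SULTR1;2, SULTR2;1 and SULTR4;2 differed by 0.23 ± 0.34, 0.08 ± 0.13 and -0.48 ± 0.26, with edgeR adjusted p-values from 0.318 to 0.82. The uptake transporter SULTR1;1 had 0 counts in 2013 and 7 in 2014, too few to test.

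The window before ATSDI1, one of the sulfur genes with the largest falls, is shown because the core motif of a known sulfur-response element, GAGAC, was found in it. It lies at chr5:19807854-19808103 on the minus strand of TAIR10.1, overlaps no other annotated gene, and capitals mark the motif as it reads on the other strand, GTCTC, 23 bases before the start.
ATSDI1: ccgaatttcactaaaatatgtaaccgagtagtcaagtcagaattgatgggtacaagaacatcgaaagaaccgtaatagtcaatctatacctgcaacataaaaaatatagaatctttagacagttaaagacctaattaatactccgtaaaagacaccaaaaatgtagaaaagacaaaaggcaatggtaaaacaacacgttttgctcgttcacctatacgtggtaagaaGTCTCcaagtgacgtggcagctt
Either strand of the motif was present in the windows of 5 of the 18 sulfur genes (LSU4, ATSDI1, GGCT2;1, BGLU28 and EIL3), which is 27.8%. It was present in 25.8% of the windows of all 27438 protein-coding genes, so its share among the sulfur genes was near the background.

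**Figure D3:**
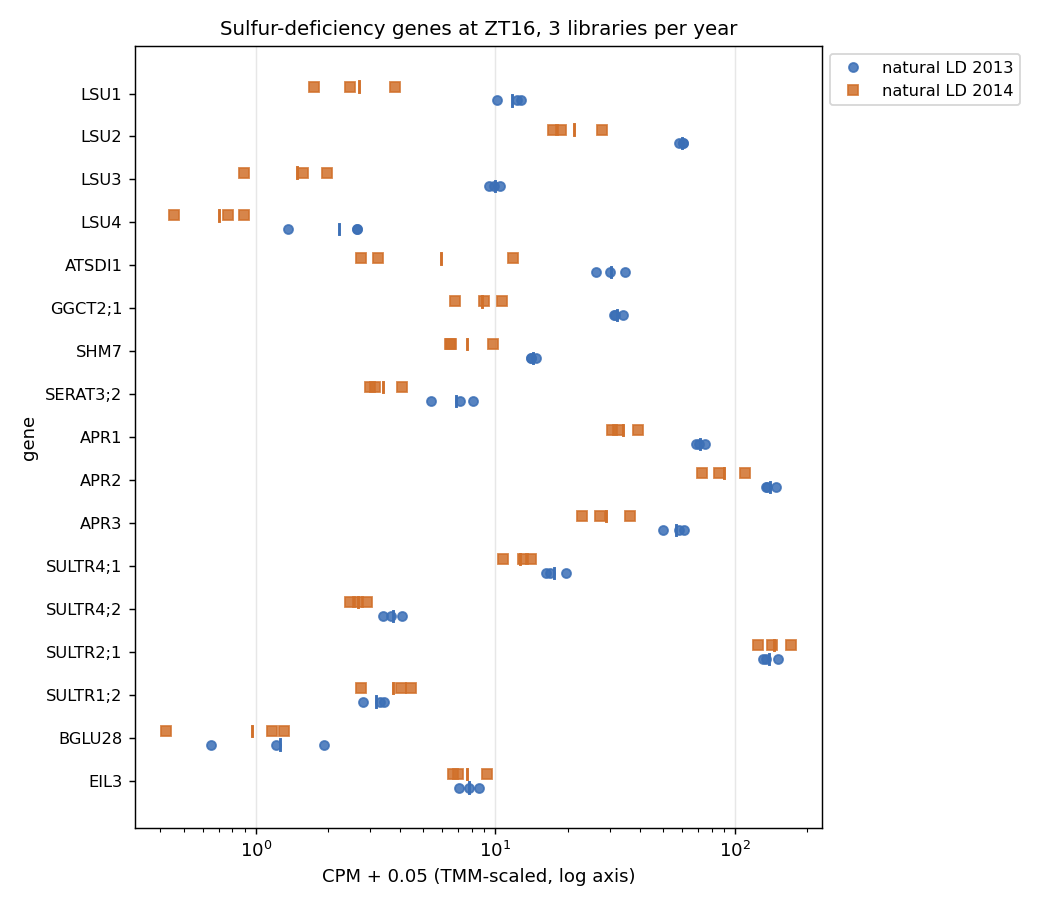
Evening level of sulfur-deficiency genes in each library, as CPM + 0.05 on a log axis, with blue circles for 2013, orange squares for 2014 and a vertical tick at each mean. For the first 12 genes every 2014 library lies below every 2013 library, while SULTR2;1, SULTR1;2, BGLU28 and EIL3 overlap.

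Of 15 phosphate-starvation genes tested, 5 were called lower in 2014, against 2.33% of all genes, none was higher, 10 were not called, and the median was -0.96. The phosphate sensor SPX1 read 15.5, 14 and 9.07 CPM in 2013 and 4.41, 6.16 and 7.03 CPM in 2014 (-1.13 ± 0.26, edgeR adjusted p = 0.00982). The acid phosphatase PAP17 read 13.3, 12.7 and 10.4 CPM and 5.93, 4.02 and 7.34 CPM (-1.08 ± 0.25, edgeR adjusted p = 0.0119). The seasons did not overlap in either gene. The other 3 were the glycerophosphodiesterase GDPD1, the PHO1 homologue PHO1;H1 and the galactolipid synthase MGD3, at -1.09, -0.96 and -1.41, with edgeR adjusted p-values of 0.0354, 0.0317 and 0.0477. None of the 5 calls held in all 6 fits without 1 library. That of SPX1 was lost without replicate 1 of 2013 (-0.99), replicate 2 of 2013 (-1.06) or replicate 1 of 2014 (-0.96), and that of PAP17 without replicate 1 of 2013 (-1.01), replicate 2 of 2013 (-1.04) or replicate 2 of 2014 (-0.87). GDPD1 was lost without any library except replicate 3 of 2013, PHO1;H1 without any except replicate 3 of either season, and MGD3 without any. Their values in the 6 fits lay between -1.20 and -0.92, -1.32 and -0.76, and -1.62 and -1.14.

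Nitrate-response genes had 2 of 12 members higher, against 2.82% of all genes, 0 lower and a median of 0.15. NIA1, a nitrate reductase, read 61.6, 47 and 46.7 CPM in 2013 and 189, 237 and 133 CPM in 2014 (1.85 ± 0.33, edgeR adjusted p = 0.00116). LBD38, a nitrate-induced transcription factor, differed by 0.87 ± 0.21 (edgeR adjusted p = 0.0159), a call lost without replicate 2 of 2013 (0.90), replicate 3 of 2013 (0.80) or replicate 2 of 2014 (0.83). The second reductase gene NIA2 differed by 0.60 ± 0.23 and the nitrate transporter NRT1.1 by 0.05 ± 0.12, neither past the threshold.

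Of 15 genes that rise in darkness and at low sugar, 6 were called higher in the evening of 2014, against 2.82% of all genes, none was lower, 9 were not called, and the median was 0.62. DIN10, a raffinose synthase-like gene, read 62.9, 47.6 and 66.1 CPM in 2013 and 152, 182 and 228 CPM in 2014 (1.67 ± 0.18, edgeR adjusted p = 4.33e-06). DIN1, a plastid protein of dark-treated and senescing leaves, read 4.62, 4.8 and 8.17 CPM and 14.7, 46.7 and 27.4 CPM (2.33 ± 0.39, edgeR adjusted p = 0.000614). The seasons did not overlap, and both calls held without each library in turn. The F-box protein KMD1 differed by 0.96 ± 0.21, the galactosidase BGAL4 by 1.17 ± 0.24, the asparagine synthetase ASN1 by 1.24 ± 0.33 and the amino acid catabolism enzyme DIN3 by 0.53 ± 0.13 (edgeR adjusted p = 0.00606, 0.00504, 0.0294 and 0.0183). KMD1 lost its call without replicate 2 of 2013 (0.90) or replicate 2 of 2014 (0.76), and BGAL4 without replicate 2 of 2013 (0.87). ASN1 lost its call without replicate 1 of 2013 (1.30), replicate 2 of 2013 (1.05), replicate 3 of 2013 (1.39) or replicate 2 of 2014 (0.93), and DIN3 without replicate 1 of 2013 (0.54), replicate 2 of 2013 (0.58), replicate 3 of 2013 (0.47) or replicate 2 of 2014 (0.48). Starch genes went both ways, with 1 of 21 higher and 2 lower, against 2.82% and 2.33% of all genes. BAM9, a catalytically inactive beta-amylase homologue, differed by 0.91 ± 0.18 (edgeR adjusted p = 0.00375) and PHS2, the cytosolic glucan phosphorylase, by -0.54 ± 0.11 (edgeR adjusted p = 0.00369), and both kept their calls without each library. The glucan phosphatase SEX4 was called at -0.36 (edgeR adjusted p = 0.0485) and lost its call without replicate 1 of 2013 (-0.34), replicate 2 of 2013 (-0.31), replicate 1 of 2014 (-0.40), replicate 2 of 2014 (-0.37) or replicate 3 of 2014 (-0.31).

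Genes of the photosystems and carbon fixation were called in 1 direction, most of them at small differences. Of 30 tested, 9 were called higher, against 2.82% of all genes, and 0 lower, with a median of 0.28. LHCB4.3, a minor antenna protein, read 64.3, 64.1 and 65.6 CPM in 2013 and 182, 88.2 and 122 CPM in 2014 (1.01 ± 0.19, edgeR adjusted p = 0.00232). It was the only one of the 9 that stayed called without each library. LHCA1, an antenna protein of photosystem I, read 929.6, 904 and 954 CPM and 1297, 1524 and 1195 CPM (0.53 ± 0.12, edgeR adjusted p = 0.00757), and lost its call without replicate 2 of 2014 (0.42). PSBO1, of the oxygen-evolving complex, differed by 0.43 ± 0.10 (edgeR adjusted p = 0.0119) and lost its call without replicate 1 of 2013 (0.38) or replicate 2 of 2014 (0.39). Among 12 chlorophyll synthesis genes 1 was higher, CRD1, a subunit of the cyclase that closes the fifth ring, at 431, 431 and 459 CPM and 751, 659 and 601 CPM (0.61 ± 0.09, edgeR adjusted p = 0.000162). Green leaf markers, which share genes with the photosystem list, summed to 10597 to 11394 CPM in 2013 and 12446 to 13143 CPM in 2014, with 1 of 5 called, the antenna gene LHCB6 at 0.50 ± 0.12 (edgeR adjusted p = 0.0105). Its call was lost without replicate 1 of 2013 (0.48), replicate 2 of 2013 (0.50) or replicate 2 of 2014 (0.48). The part of leaf tissue in these differences was not tested.

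For the flowering pathway, the evening is when CO, the day-length sensor, acts on FT, the mobile flowering signal. FT read 14.2, 16 and 16.7 CPM in 2013 and 12.8, 7.75 and 15.2 CPM in 2014, with overlap between the seasons (-0.40 ± 0.22, edgeR adjusted p = 0.326). Its close relative TSF read 1.73, 1.8 and 1.3 CPM and 0.719, 0.374 and 1.32 CPM (-1.01 ± 0.50, edgeR adjusted p = 0.274). CO read 3.47, 3.96 and 5.57 CPM and 3.33, 5.51 and 5.5 CPM (0.13 ± 0.27, edgeR adjusted p = 0.848). None of these 3 passed the threshold. The regulators of CO differed by 0.18 ± 0.32 (GI), 0.04 ± 0.14 (FKF1) and -0.10 ± 0.26 (CDF1), with edgeR adjusted p-values from 0.818 to 0.914, and PIF4, a light- and heat-signalling factor, by 0.40 ± 0.21 (edgeR adjusted p = 0.299).

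FLC, the MADS-box repressor of flowering, was lower in 2014. It read 7.08, 5.28 and 6.87 CPM in 2013 and 1.53, 2.05 and 0.917 CPM in 2014, against 6.49 ± 0.238 CPM (SD, n = 3) in lab LD. The difference was -2.07 ± 0.24 (edgeR adjusted p = 1.51e-05), and between -2.36 and -1.83 without each evening library in turn, always called. It was the only one of 20 flowering repressors called, and of 18 tested regulators of FLC none was called. Of all genes 5.16% were called in either direction, so both counts were near that share. Of the regulators of FLC none was called in the 6 fits that left out 1 library either. SOC1, a flowering promoter that FLC represses, was lower too and not higher, at 171, 170.1 and 158 CPM and 98.4, 114 and 128 CPM (-0.56 ± 0.16, edgeR adjusted p = 0.0421). The promoter SPL4 differed by -0.86 ± 0.22 (edgeR adjusted p = 0.0246). The seasons did not overlap in SOC1 or SPL4, but SOC1 lost its call without replicate 1 of 2013 (-0.53), replicate 2 of 2013 (-0.54), replicate 3 of 2013 (-0.59), replicate 1 of 2014 (-0.46) or replicate 2 of 2014 (-0.56), and SPL4 without replicate 1 of 2013 (-0.75), replicate 2 of 2013 (-0.86), replicate 1 of 2014 (-0.81) or replicate 2 of 2014 (-0.85). Of 16 flowering promoters no other was called.

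Among 12 evening clock genes 2 were higher, against 2.82% of all genes, and 0 lower. LUX, a subunit of the evening complex, read 13.1, 14.3 and 12.6 CPM in 2013 and 32.5, 35 and 28.9 CPM in 2014 (1.27 ± 0.12, edgeR adjusted p = 1.75e-06). TOC1, a repressor of the morning genes, read 25.7, 26.5 and 26.1 CPM and 43.9, 46.2 and 37.6 CPM (0.71 ± 0.13, edgeR adjusted p = 0.00156). Both calls held without each library. Among 13 morning clock genes 1 was called, RVE1, a MYB-like factor, at 0.87 ± 0.23 (edgeR adjusted p = 0.0301), and it lost its call without replicate 1 of 2013 (0.90), replicate 2 of 2013 (0.92), replicate 3 of 2013 (0.78), replicate 1 of 2014 (0.71) or replicate 2 of 2014 (0.90). None of 10 photoreceptor genes was called.

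**Figure D4:**
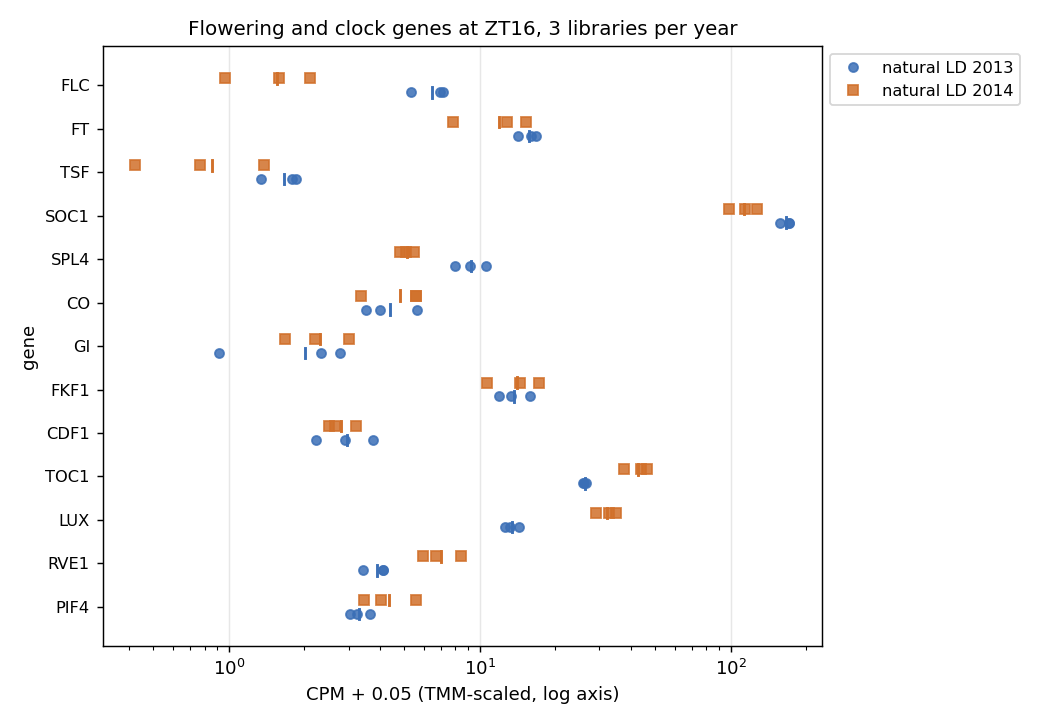
Evening level of flowering and clock genes in each library, as CPM + 0.05 on a log axis, with blue circles for 2013, orange squares for 2014 and a vertical tick at each mean. FLC, SOC1 and SPL4 lie lower in every 2014 library, LUX, TOC1 and RVE1 higher, and FT, CO, GI, FKF1 and CDF1 overlap.

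In the cold-response list, 3 of 16 members were lower, against 2.33% of all genes, 0 higher, and the median was -0.41. COR15A, a chloroplast protein that protects membranes in the cold, read 121, 126 and 123 CPM in 2013 and 19.1, 26.3 and 21 CPM in 2014 (-2.48 ± 0.42, edgeR adjusted p = 0.000886). Its tandem copy COR15B read 66.5, 76 and 55.2 CPM and 13.2, 17.7 and 9.78 CPM (-2.27 ± 0.28, edgeR adjusted p = 1.93e-05). KIN2 read 768, 683 and 795 CPM and 172, 313 and 193 CPM (-1.73 ± 0.25, edgeR adjusted p = 0.000162). All 3 genes had gaps between the seasons wider than the spread within either and kept their calls without each library, but COR15A and COR15B, and KIN2 and KIN1, are close copies whose reads may be shared. The 3 CBF genes, which activate them in the cold, had at most 4 counts each over the 3 libraries of either season.

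Heat-shock genes had 1 of 25 members called higher, against 2.82% of all genes, and a median of 0.75. Other fits called more of them, 8 with the 6 evening libraries alone, 5 with limma-trend, 4 with DESeq2 and 3 without replicate 1 of the 2014 morning. HSP18.2, a small heat-shock protein, read 2.89, 3.24 and 4.67 CPM in 2013 and 150.2, 15.4 and 41.6 CPM in 2014 (4.26 ± 0.71, edgeR adjusted p = 0.000662). The 2014 libraries were far apart, and the difference was 2.97 without replicate 1 of 2014, the smallest of the 6 fits without 1 library, and still called. The list as a whole summed to 74.8 to 87.4 CPM in 2013 and 120 to 345 CPM in 2014, and 13 members had all 2014 libraries above all 2013 libraries, 52.0% of 25 against 14.5% of all genes. Of 13 genes of protein folding in the endoplasmic reticulum, 5 were called lower, against 2.33% of all genes, 0 were higher, 8 were not called, and the median was -0.44. The chaperone BIP2 read 66.5, 88.7 and 84.9 CPM in 2013 and 44.2, 42.5 and 52.1 CPM in 2014 (-0.79 ± 0.16, edgeR adjusted p = 0.00354). The calreticulin CRT1B differed by -0.56 ± 0.11 (edgeR adjusted p = 0.00254). Both kept their calls without each library, while CNX1 (calnexin), CRT1A and SDF2, at -0.59, -0.44 and -0.57, did not. CNX1 lost it without replicate 2 of 2013 (-0.57), replicate 3 of 2013 (-0.52), replicate 1 of 2014 (-0.59) or replicate 2 of 2014 (-0.52), CRT1A without replicate 2 of 2013 (-0.38), replicate 3 of 2013 (-0.45), replicate 1 of 2014 (-0.43) or replicate 2 of 2014 (-0.41), and SDF2 without any library.

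Of 9 genes of the anthocyanin branch 5 were called lower in 2014, against 2.33% of all genes, 0 were higher, 4 were not called, and the median was -1.46. DFR, the first enzyme of the branch, read 31.2, 27.4 and 17.9 CPM in 2013 and 13, 4.296 and 5.4 CPM in 2014 (-1.73 ± 0.36, edgeR adjusted p = 0.0044). LDOX, the next enzyme, read 47.7, 35.2 and 17.2 CPM and 17.5, 6.63 and 5.81 CPM (-1.72 ± 0.39, edgeR adjusted p = 0.00933). In LDOX replicate 1 of 2014 lay above replicate 3 of 2013, so the seasons overlapped. The transporter TT19, the acyltransferase 5MAT and the xylosyltransferase UGT79B1 were called at -1.46, -1.78 and -1.28 (edgeR adjusted p = 0.0109, 0.033 and 0.0443). With DESeq2 or limma-trend in place of edgeR, UGT79B1 was not called. Of the 5, DFR alone kept its call without each library. Without replicate 1 of 2014 the difference was -2.39 for DFR, -2.42 for LDOX and -2.86 for 5MAT. LDOX lost its call without replicate 1 of 2013 (-1.38) or replicate 2 of 2014 (-1.49). TT19 lost it without replicate 1 of 2013 (-1.11), replicate 2 of 2013 (-1.44), replicate 2 of 2014 (-1.26) or replicate 3 of 2014 (-1.24), 5MAT without replicate 1 of 2013 (-1.57), replicate 2 of 2013 (-1.76), replicate 2 of 2014 (-1.41) or replicate 3 of 2014 (-1.50) and UGT79B1 without replicate 1 of 2013 (-0.95), replicate 2 of 2013 (-1.26), replicate 2 of 2014 (-1.15) or replicate 3 of 2014 (-1.03). The flavonol and shared phenylpropanoid list had 1 of 15 lower, the flavonol rhamnosyltransferase UGT78D1 at -0.54 ± 0.15 (edgeR adjusted p = 0.0392), lost without replicate 1 of 2013 (-0.60), replicate 2 of 2013 (-0.47), replicate 3 of 2013 (-0.56), replicate 2 of 2014 (-0.47) or replicate 3 of 2014 (-0.54). The UV-B and high-light list had 1 of 22 higher, against 2.82% of all genes. It was RUP1, a repressor of the UV-B receptor, at 1.01, 0.6 and 0.907 CPM and 2.25, 1.96 and 2.24 CPM (1.36 ± 0.37, edgeR adjusted p = 0.0303), a call lost without any 1 of the 6 libraries, at values between 1.16 and 1.51.

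Salicylic acid genes had 4 of 14 members lower, against 2.33% of all genes, and 0 higher, with a median of -0.35. PR2, a secreted glucanase, read 6.21, 16.2 and 5.44 CPM in 2013 and 0.18, 0.467 and 0.204 CPM in 2014 (-4.99 ± 0.66, edgeR adjusted p = 4.36e-05). SARD1, a transcription factor that drives salicylic acid synthesis, read 2.6, 5.28 and 2.98 CPM and 1.08, 0.654 and 0.815 CPM (-2.09 ± 0.40, edgeR adjusted p = 0.00258). Replicate 2 of 2013 was the highest library in both genes, and without it PR2 differed by -4.30. NIMIN1, which binds the receptor NPR1, differed by -2.34 ± 0.53 (edgeR adjusted p = 0.00998) and lost its call without replicate 2 of 2013 (-1.74). PR5, a thaumatin-like protein, differed by -0.95 ± 0.21 (edgeR adjusted p = 0.00905) and lost its call without replicate 2 of 2013 (-0.85) or replicate 2 of 2014 (-0.79). The synthesis enzyme ICS1 was not called (-0.27 ± 0.19, edgeR adjusted p = 0.478). SARD1 also lost its call with thinned libraries, at -1.68.

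Jasmonate and ethylene genes had 4 of 21 lower, against 2.33% of all genes, and 0 higher, with a median of -0.22. None of the 4 calls held without each library. The vegetative storage protein VSP2 read 239.9, 322 and 299.9 CPM in 2013 and 144, 159.8 and 133 CPM in 2014 (-0.98 ± 0.27, edgeR adjusted p = 0.031), and lost its call without any library except replicate 1 of 2013. The 6 values lay between -1.10 and -0.89. TAT3, a tyrosine aminotransferase, read 1.01, 2.28 and 2.2 CPM in 2013 and 0, 0 and 0.204 CPM in 2014, from 43 and 2 counts over the 3 libraries. Its level in 2013 was 29.6 times that in 2014, with a 95% counting interval of 7.72 to 252 (edgeR adjusted p = 0.0119), and its call was lost without replicate 2 of 2013 (-4.47), replicate 1 of 2014 (-4.11) or replicate 2 of 2014 (-4.13). Both counts of 2014 were in replicate 3. The synthesis enzyme LOX2 and the repressor JAZ3 made up the other calls, at -0.58 and -0.65 (edgeR adjusted p = 0.0198 and 0.0378). LOX2 lost its call without replicate 2 of 2013 (-0.57), replicate 3 of 2013 (-0.44), replicate 2 of 2014 (-0.55) or replicate 3 of 2014 (-0.44), and JAZ3 without replicate 1 of 2013 (-0.70), replicate 2 of 2013 (-0.72), replicate 3 of 2013 (-0.52), replicate 1 of 2014 (-0.57) or replicate 3 of 2014 (-0.62). Of 11 genes that respond within minutes to touch or wounding, none was called. Abscisic acid and drought genes had 2 of 24 lower, against 2.33% of all genes. RD22, a dehydration-responsive wall protein, differed by -0.67 ± 0.13 (edgeR adjusted p = 0.00275) and was called in each fit. HAI2, a phosphatase of the pathway, differed by -1.75 ± 0.48 (edgeR adjusted p = 0.033). HAI2 lost its call without replicate 1 of 2013 (-1.83), replicate 2 of 2013 (-1.54), replicate 3 of 2013 (-1.85), replicate 2 of 2014 (-1.55) or replicate 3 of 2014 (-1.40) and stood at -2.60 without replicate 1 of 2014. Indolic glucosinolate genes had 3 of 7 lower, against 2.33% of all genes. CYP79B2, which makes the oxime precursor, differed by -0.55 ± 0.14 (edgeR adjusted p = 0.018), a call lost without replicate 2 of 2013 (-0.55), replicate 3 of 2013 (-0.54) or replicate 2 of 2014 (-0.44). The regulator MYB51 and the next enzyme CYP83B1 were called at -0.78 and -0.58 (edgeR adjusted p = 0.0357 and 0.0266). With DESeq2 or limma-trend in place of edgeR, MYB51 was not called. MYB51 lost its call without replicate 1 of 2013 (-0.81), replicate 2 of 2013 (-0.62), replicate 1 of 2014 (-0.63) or replicate 3 of 2014 (-0.76), and CYP83B1 without replicate 1 of 2013 (-0.60), replicate 2 of 2013 (-0.54), replicate 3 of 2013 (-0.59), replicate 2 of 2014 (-0.46) or replicate 3 of 2014 (-0.48).

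Shade avoidance genes had 1 of 15 higher and 3 lower, against 2.82% and 2.33% of all genes, with a median of -0.20. ATHB2, a homeodomain factor that responds to far-red light, read 10.7, 12.2 and 9.72 CPM in 2013 and 4.58, 4.58 and 5.5 CPM in 2014 (-1.16 ± 0.21, edgeR adjusted p = 0.00156). Its relative HAT1 went the other way, at 14, 12.5 and 14.5 CPM and 18.7, 17.9 and 30.8 CPM (0.71 ± 0.17, edgeR adjusted p = 0.0127), and lost its call without replicate 2 of 2013 (0.65) or replicate 3 of 2014 (0.42). PIL1, a bHLH gene of early shade responses, and HAT2 were called at -1.15 and -0.74 (edgeR adjusted p = 0.0464 and 0.0444). PIL1 lost its call without replicate 1 of 2013 (-1.13), replicate 2 of 2013 (-0.96), replicate 1 of 2014 (-0.89) or replicate 2 of 2014 (-1.06), and HAT2 without replicate 1 of 2013 (-0.73), replicate 2 of 2013 (-0.76), replicate 3 of 2013 (-0.72), replicate 1 of 2014 (-0.65), replicate 2 of 2014 (-0.81) or replicate 3 of 2014 (-0.75). Auxin-response genes had 3 of 17 lower, against 2.33% of all genes, and 0 higher. IAA1, an auxin co-receptor and repressor, read 6.36, 6.84 and 5.32 CPM in 2013 and 2.7, 3.46 and 2.45 CPM in 2014 (-1.10 ± 0.22, edgeR adjusted p = 0.00366). ATHB2 and IAA1 kept their calls without each library. IAA29 and IAA14, of the same family as IAA1, were called at -1.17 and -0.83 (edgeR adjusted p = 0.013 and 0.0275). IAA29 lost its call without replicate 3 of 2013 (-1.09) or replicate 1 of 2014 (-0.93), and IAA14 without replicate 1 of 2013 (-0.72), replicate 2 of 2013 (-0.87), replicate 1 of 2014 (-0.81), replicate 2 of 2014 (-0.85) or replicate 3 of 2014 (-0.82). Among 17 gibberellin genes GA3OX2, which makes the active hormone, was the only call, at 1.59, 1.56 and 2.2 CPM and 6.92, 4.76 and 4.99 CPM (1.64 ± 0.29, edgeR adjusted p = 0.00106). Brassinosteroid genes had 1 of 9 higher and 2 lower, with the last enzyme of the pathway, BR6OX2, at -0.93 ± 0.18 (edgeR adjusted p = 0.00229). The synthesis enzymes DWF4 and DET2 were called in opposite directions, at -0.78 and 0.61 (edgeR adjusted p = 0.0129 and 0.0195). GA3OX2 and BR6OX2 kept their calls without each library, while DWF4 lost its call without replicate 1 of 2013 (-0.71) or replicate 2 of 2014 (-0.72) and DET2 without replicate 1 of 2013 (0.63), replicate 2 of 2013 (0.58), replicate 3 of 2013 (0.60), replicate 2 of 2014 (0.56) or replicate 3 of 2014 (0.57).

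The other 5 remaining lists had 1 or 2 calls each, and of all genes 5.16% were called in either direction. NAP, a senescence factor, read 2.89, 1.92 and 2.33 CPM in 2013 and 0.539, 1.21 and 0.713 CPM in 2014 (-1.51 ± 0.33, edgeR adjusted p = 0.0069), was called without each library and was the only call of 12 senescence genes. MYB29, a regulator of aliphatic glucosinolates, was the only call of 15 there, at -0.62 ± 0.15 (edgeR adjusted p = 0.0187). CSD1, a copper-zinc superoxide dismutase, was the only call of 6 copper genes, at -0.84 ± 0.20 (edgeR adjusted p = 0.0114). The expansin EXPA4 was the only call of 14 wall-loosening genes, at -0.59 ± 0.13 (edgeR adjusted p = 0.00905). Of 13 aquaporins the tonoplast proteins TIP1;2 and TIP2;1 were called, at 0.53 and 0.52 (edgeR adjusted p = 0.00829 and 0.047). MYB29 lost its call without replicate 1 of 2013 (-0.58), replicate 2 of 2013 (-0.65) or replicate 3 of 2014 (-0.51), CSD1 without replicate 1 of 2013 (-0.70) or replicate 1 of 2014 (-0.74), and EXPA4 without replicate 2 of 2013 (-0.55) or replicate 1 of 2014 (-0.52). TIP1;2 lost its call without replicate 2 of 2013 (0.46) or replicate 2 of 2014 (0.43), and TIP2;1 without replicate 1 of 2013 (0.50), replicate 2 of 2013 (0.42), replicate 2 of 2014 (0.42) or replicate 3 of 2014 (0.46).

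The most abundant uncalled members of the lists with few calls had differences nearer 0. Among flowering repressors SVP, a partner of FLC, read 44.7 ± 1.52 CPM in 2013 and 44.7 ± 4.71 CPM in 2014 (SD, n = 3), a difference of 0.00 ± 0.12. FVE, a chromatin regulator of FLC, differed by -0.09 ± 0.10, the clock gene RVE4 by 0.08 ± 0.11 and the UV-B receptor UVR8 by 0.19 ± 0.11. CHS, the entry enzyme of flavonoid synthesis, differed by 0.11 ± 0.14 and the protochlorophyllide reductase PORB by 0.05 ± 0.11. The iron superoxide dismutase FSD1 differed by 0.27 ± 0.13 and the ferritin FER3 by -0.22 ± 0.14. Of the growth genes, the aquaporin PIP1;2 differed by 0.12 ± 0.11, the wall enzyme XTH4 by -0.11 ± 0.14 and the cytokinesis syntaxin KNOLLE by -0.10 ± 0.10. TCH2, a calmodulin-like touch gene, differed by 0.15 ± 0.17, the chlorophyll breakdown enzyme NYC1 by 0.16 ± 0.12 and the glucosinolate enzyme BCAT4 by -0.37 ± 0.17. The edgeR adjusted p-values of these 14 genes ran from 0.228 to 0.998. Wider but also uncalled were HSP70 at 1.30 ± 0.56 (edgeR adjusted p = 0.189), P5CS1, an enzyme of proline synthesis, at -0.76 ± 0.27 (edgeR adjusted p = 0.104), and the gibberellin-induced GASA1 at 0.54 ± 0.22 (edgeR adjusted p = 0.169).

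Outside the lists, the largest rises among genes with at least 5 CPM in the higher group included several of unknown role. AT2G14247, of uncharacterised product, read 4.62, 2.04 and 0.519 CPM in 2013 and 73.8, 22.9 and 23 CPM in 2014 (4.10 ± 0.80, edgeR adjusted p = 0.00271). AT5G05250, also uncharacterised, read 21.4, 21.5 and 11.7 CPM and 102, 93.5 and 60.8 CPM (2.23 ± 0.30, edgeR adjusted p = 5.92e-05). AT4G36850, a PQ-loop repeat protein, read 1.73, 1.08 and 2.33 CPM and 10.5, 15.9 and 15.6 CPM (3.03 ± 0.36, edgeR adjusted p = 1.51e-05). The seasons were apart in each, and these 3 calls held without each evening library, with AT2G14247 at 4.93 without replicate 1 of 2013 and at 3.3 without replicate 1 of 2014. CYP81D11, a cytochrome P450 of the response to foreign chemicals, differed by 2.69 ± 0.55 (edgeR adjusted p = 0.00381). MIOX2, an inositol oxygenase, differed by 2.42 ± 0.53 (edgeR adjusted p = 0.00758), and its call was lost without replicate 2 of 2013 (2.04) or replicate 3 of 2014 (1.51).

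Among the largest falls outside the lists, AT5G10760, an aspartyl protease, read 8.09, 12.4 and 8.04 CPM in 2013 and 0.3596, 0.654 and 1.32 CPM in 2014 (-3.63 ± 0.54, edgeR adjusted p = 0.000176). AT1G76960, of uncharacterised product, read 26.3, 35.2 and 19.4 CPM and 4.76, 3.27 and 5.5 CPM (-2.59 ± 0.36, edgeR adjusted p = 0.00011). AT1G68600, of the aluminium-activated malate transporter family, read 51.4, 55.6 and 48.2 CPM and 13.8, 12.3 and 15.5 CPM (-1.90 ± 0.20, edgeR adjusted p = 4.33e-06). No 2014 library reached the lowest of 2013 in these 3 genes. The glutathione transferase GSTF6 differed by -1.91 ± 0.34 and AT1G70270, annotated as a transcription factor, by -2.29 ± 0.37 (edgeR adjusted p = 0.00125 and 0.000469). These 5 calls held without each evening library, although AT5G10760 stood at -4.22 and AT1G70270 at -3.08 without replicate 3 of 2014. CSLA01, a cellulose synthase-like gene, and ANK, annotated as an ankyrin gene, also had large falls, at -2.27 and -1.80, and AT5G14110 a large rise, at 2.27 (edgeR adjusted p = 0.0163, 0.0175 and 0.0026). CSLA01 lost its call without replicate 2 of 2013 (-2.18), replicate 2 of 2014 (-1.98) or replicate 3 of 2014 (-2.0) and stood at -3.13 without replicate 1 of 2014, while ANK lost its call without replicate 2 of 2013 (-1.46), replicate 1 of 2014 (-1.77) or replicate 2 of 2014 (-1.62).

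The same seasons differed at more genes in the morning. At ZT4, 5834 genes were called (31.0%), 3110 higher in 2014 (16.5%) and 2724 lower (14.5%). Both times shared 530 called genes, 54.7% of the evening calls and 9.08% of the morning calls, and 395 of these moved the same way while 135 moved opposite ways. The difference between the seasons itself changed with the time of day in 3211 genes (17.1%) by the interaction test, 1559 with a higher (8.29%) and 1652 with a lower evening value (8.79%), and among these were 372 of the evening calls (38.4%) and all 135 with opposite directions. Of the 135, 68 were higher in 2014 in the evening and lower in the morning. The other 67 were lower in the evening and higher in the morning. Both counts are out of the 18797 genes tested.

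**Figure D5:**
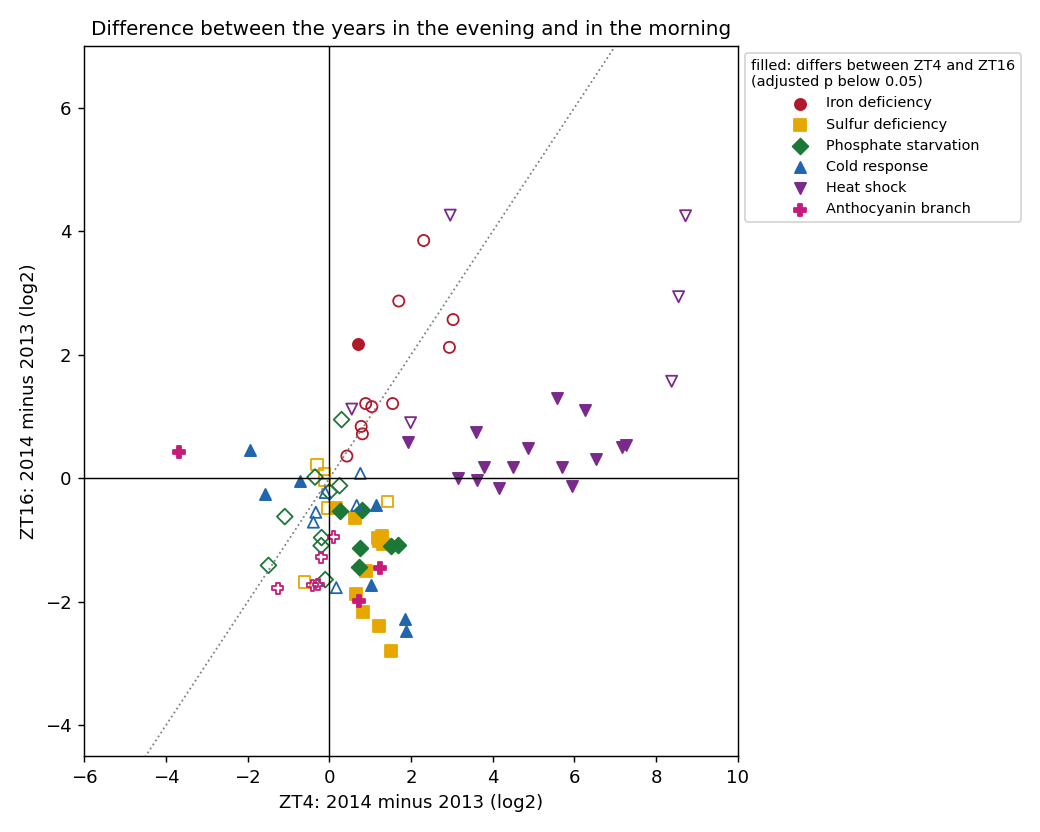
Difference between the seasons (2014 minus 2013, log2) at ZT4 on the x axis and at ZT16 on the y axis, for tested members of 6 lists. Filled symbols differ between the times by the interaction test, and members with 3 or fewer counts in any of the 4 groups are not drawn. Sulfur and phosphate genes with filled symbols lie at the lower right, higher in 2014 in the morning and lower in the evening. Iron genes lie at the upper right.

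On the sulfur list, drawn up after the values were seen, 10 of 17 were called lower in the evening and higher in the morning of 2014. Each of these passed the interaction test, and few genes of any kind were called in opposite directions. In the morning 10 of 17 were higher in 2014, against 16.5% of all genes, and 0 lower (median 0.82). The interaction test was passed by 11, all with a lower evening value, against 8.79% of all genes. LSU3 read 7.63, 4.86 and 4.32 CPM in the morning of 2013 and 12.2, 15.72 and 20.6 CPM in that of 2014, a difference of 1.52 ± 0.27 (edgeR adjusted p = 0.000109). The interaction was -4.31 ± 0.43 (edgeR adjusted p = 1.3e-07). APR1 read 89.8, 92.3 and 88.6 CPM and 212, 182 and 276 CPM in the morning (1.31 ± 0.13, edgeR adjusted p = 3.05e-08, interaction -2.37). So the order of the seasons in APR1 was opposite at the 2 times, with no overlap at either. LSU4 was not higher in the morning (-0.60 ± 0.29, edgeR adjusted p = 0.123).

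No iron gene was called in opposite directions, which few genes of any kind were. Of 13, 6 were called higher at both times. Over all genes, 2.82% were called higher in the evening and 16.5% in the morning. In the morning 8 of 13 were higher in 2014 and 0 lower (median 1.52). The interaction test was passed by 1 of 13, against 17.1% of all genes. It was FRO3, at 1.47 ± 0.47 (edgeR adjusted p = 0.0324). That call was lost without replicate 2 or 3 of the 2013 evening (1.47 and 1.39), replicate 1 of the 2014 evening (1.16), replicate 1, 2 or 3 of the 2013 morning (1.45 at the lowest) or replicate 3 of the 2014 morning (1.27). FRO2 read 2.2, 2.51 and 1.19 CPM in the morning of 2013 and 20.1, 11.1 and 16.1 CPM in that of 2014 (3.03 ± 0.37, edgeR adjusted p = 6.94e-07). IRT1 read 2.77, 2.98 and 0.432 CPM and 14.7, 12.7 and 18 CPM (2.94 ± 0.45, edgeR adjusted p = 1.68e-05). The coumarin gene CYP82C4 had the wider difference in the morning, 4.95 ± 0.49 (edgeR adjusted p = 2.06e-08, interaction -2.56). Its interaction was not called without replicate 2 of the 2013 evening (-1.61) or replicate 3 of the 2013 morning (-1.89). FLC was lower in 2014 in the morning as well, at 6.01, 4.86 and 5.4 CPM and 2.2, 2.57 and 1.97 CPM (-1.27 ± 0.25, edgeR adjusted p = 0.000365). Its interaction of -0.80 ± 0.37 did not pass (edgeR adjusted p = 0.146).

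Of 16 cold genes 3 were called lower in the evening and higher in the morning, and of 15 phosphate genes 3 were. Over all genes tested few were called that way, by the count given above. COR15A read 37.7, 15.4 and 7.55 CPM in the morning of 2013 and 21.3, 96.1 and 105 CPM in that of 2014 (1.88 ± 0.44, edgeR adjusted p = 0.00154, interaction -4.36). The morning libraries overlapped and spread widely in both seasons. PAP17 read 29.7, 33.4 and 31 CPM and 126, 94.3 and 80.9 CPM in the morning (1.68 ± 0.20, edgeR adjusted p = 3.16e-07, interaction -2.76). Of 15 phosphate genes 6 passed the interaction test with a lower evening value, against 8.79% of all genes, and none with a higher one.

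Heat-shock genes differed more in the morning. Of 25 tested, 24 were higher in 2014 in the morning and 15 passed the interaction test with a lower evening value. Over all genes, 16.5% were higher in the morning and 8.79% passed that test with a lower evening value. MBF1C, a heat-induced coactivator, read 30.3, 21.3 and 19.9 CPM in the morning of 2013 and 2103, 498 and 1124 CPM in that of 2014, and 10.12, 8.16 and 9.98 CPM and 12.4, 10.4 and 8.97 CPM in the evening (interaction -5.52 ± 0.47, edgeR adjusted p = 1.81e-08). Replicate 1 of the 2014 morning was the highest library. HSP18.2, called in the evening, did not pass the interaction test (1.29 ± 1.00, edgeR adjusted p = 0.429). The flavonol list had 14 of 15 higher in the morning, and F3H, an enzyme shared by flavonols and anthocyanins, read 214, 253 and 230.2 CPM and 1272, 1265 and 1085 CPM there (interaction -2.71, edgeR adjusted p = 2.25e-09). In the other direction, sugar-starvation genes had 7 of 15 with a higher evening value by the interaction test, against 8.29% of all genes. KMD1 was lower in the morning of 2014 (-2.19 ± 0.47, edgeR adjusted p = 0.000681) and had an interaction of 3.15. CCL, a CCR-like gene under clock control, read 40.5, 36 and 39.5 CPM in the morning of 2013 and 3.72, 6.14 and 7.73 CPM in that of 2014, and was not called in the evening (0.12 ± 0.12, interaction 2.83).

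The strongest tests of the interaction mostly fell on genes that differed in the morning and were uncalled in the evening. AT5G44680, of the DNA glycosylase family, differed by -2.46 ± 0.13 in the morning and 0.04 ± 0.11 in the evening (interaction edgeR adjusted p = 7.57e-10). AT5G19190, AT5G54145 and the Kelch F-box gene AT1G23390 differed by -3.65, -2.43 and -3.01 in the morning and by 0.11, 0.38 and 0.40 in the evening. The resistance genes RPP4 and RPP5, neighbours in a cluster of close copies, differed by -2.87 and -1.89 in the morning and by 0.02 and -0.18 in the evening. AT4G16880, a leucine-rich repeat gene of the same cluster, was called in opposite directions, at -1.94 ± 0.13 and 0.60 ± 0.13. HY5, a bZIP factor of light responses, read 16, 16.5 and 19.1 CPM in the morning of 2013 and 95.4, 70.1 and 64.7 CPM in that of 2014, and 9.39, 6.72 and 7.91 CPM and 5.75, 6.07 and 5.71 CPM in the evening (interaction -2.60 ± 0.22, edgeR adjusted p = 1.37e-08). The RING protein gene AT1G14200, the glutathione transferase GSTU5 and the abscisic acid-induced HVA22D rose in the morning by 3.64, 2.46 and 1.47 and differed in the evening by -0.35, -0.40 and -0.30. HSP81-3, a cytosolic HSP90, was called in opposite directions, at 2.34 ± 0.17 in the morning and -0.63 ± 0.16 in the evening (edgeR adjusted p = 9.5e-11 and 0.0231).

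Markers of other organs were examined in the evening libraries, where 5.16% of all genes were called. Of 7 floral organ markers 1 was called, AP3, a petal and stamen identity gene, lower in 2014 at 1.16, 2.04 and 1.81 CPM and 0.0899, 0.0934 and 0.611 CPM (-2.68 ± 0.75, edgeR adjusted p = 0.0378). Its counts were few, 39 in 2013 and 8 in 2014, and its call was lost without replicate 1 of 2013 (-2.87), replicate 2 of 2013 (-2.51), replicate 3 of 2013 (-2.62), replicate 1 of 2014 (-2.26) or replicate 2 of 2014 (-2.29), while without replicate 3 of 2014 it was -4.05. Floral markers summed to 21.2 to 24.4 CPM in 2013 and 15.5 to 27.1 CPM in 2014. Seed storage markers had 2 of 6 members tested, neither called, and summed to 0.13 to 6.79 CPM in 2013 and 0 in each library of 2014. None of 17 cell division genes was called.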

How the data were processed

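Whole-seedling RNA was sequenced as tags near transcript ends in 24 libraries, 3 for each of 8 groups. The deposited files, 1 per library, hold raw read counts for 48359 gene models, and per the submitters' processing notes bcl2fastq 2.17.1.14, Trimmomatic 0.36, Bowtie2, edgeR and TAIR10 were used. How reads were counted, and whether strand was used, is not given in the sources used here, so antisense and overlapping genes and near-identical copies are not separated. No column was left unused (0).

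Counts were summed over the models of each of 27655 loci. Loci with enough counts (edgeR's filterByExpr, minimum count 10, minimum total 15) were scaled by TMM and fitted with edgeR 4.0.16 in R 4.3.3 (glmQLFit and glmQLFTest), with 1 mean for each group. The contrasts were 2014 minus 2013 at ZT16, the same at ZT4, and their difference. The standard error is the absolute log2 difference divided by the square root of F. The test was checked on simulated counts. DESeq2 1.42.0 and limma 3.58.1 were alternatives.

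The comparison and the 39 gene lists (581 loci, after 13 entries with no match in the reference were dropped) were chosen with earlier results of these data known, and 2 further lists after the values were seen. Named were 9 flowering genes, up to 4 called members of each list in each direction without overlap, the most abundant uncalled member, the 15 largest changes each way with at least 5 CPM and no overlap, and the 8 strongest interactions each way. Other called list members named were chosen after their values were seen. Names, gene models and sequences came from RefSeq's TAIR10.1.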

Additional observations from a re-analysis of the deposited data

Results flagged for a closer look

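For 3211 genes the difference between the seasons was itself different in the evening and in the morning by the interaction test of the edgeR fit over all 24 libraries. The members and genes named above that passed it at an adjusted p of 0.05 are given here with the interaction in brackets, which is the evening difference minus the morning difference on the log2 scale. A negative value means that 2014 stood lower against 2013 in the evening than in the morning. Among the nutrient genes, negative values were found for the sulfur genes LSU1 (-2.98), LSU2 (-2.39), LSU3 (-4.31), ATSDI1 (-3.61), GGCT2;1 (-2.55) and SHM7 (-2.21), and for SERAT3;2 (-2.23), APR1 (-2.37), APR2 (-1.27), APR3 (-2.16) and SULTR4;1 (-0.65). The phosphate genes SPX1 (-1.88), PAP17 (-2.76) and GDPD1 (-2.60) were negative too, as were the coumarin gene and the ferritin CYP82C4 (-2.56) and FER3 (-0.58). The iron gene FRO3 (1.47) and the nitrate genes NIA1 (1.87), NIA2 (1.53) and NRT1.1 (0.79) were positive. In the sugar-starvation and starch lists DIN1 (3.84), DIN10 (1.93), KMD1 (3.15), BGAL4 (2.35) and PHS2 (0.92) were positive, and so were the chloroplast genes LHCA1 (0.95), LHCB6 (0.82), PSBO1 (0.41), CRD1 (0.57) and PORB (0.58).

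Of the stress genes, the cold genes COR15A (-4.36), COR15B (-4.13) and KIN2 (-2.73), the heat-shock genes MBF1C (-5.52), HSP70 (-4.29) and HSP81-3 (-2.98) and the folding genes BIP2 (-1.36), CRT1A (-0.65), CRT1B (-0.54), CNX1 (-1.25) and SDF2 (-1.04) had negative interactions. So had the flavonoid genes CHS (-1.17), F3H (-2.71), UGT78D1 (-1.36) and TT19 (-2.69), the drought genes HAI2 (-3.21), P5CS1 (-1.49) and HVA22D (-1.78) and the defence genes PR5 (-1.71) and LOX2 (-0.67). The defence and touch genes MYB51 (1.58), RPP4 (2.89), RPP5 (1.71) and TCH2 (1.30) were positive. In the flowering, clock and light lists, positive values were found for SVP (0.61), TOC1 (1.00), RVE1 (1.92), PIF4 (1.64), HAT1 (2.33) and IAA29 (1.85) and negative values for FVE (-0.46), ATHB2 (-1.39), PIL1 (-1.77), HY5 (-2.60) and BR6OX2 (-0.98). The growth genes TIP1;2 (0.50) and XTH4 (0.72) were positive.

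Outside the lists, AT1G14200 (-3.99), GSTU5 (-2.86) and CSLA01 (-3.84) had negative interactions, while AT1G23390 (3.41), AT1G70270 (2.85), AT4G16880 (2.54), AT4G36850 (2.21) and AT5G19190 (3.76) and AT5G44680 (2.50), AT5G54145 (2.81), CCL (2.83) and MIOX2 (3.49) had positive ones. Of these 79 genes, 64 kept the call under every alternative that gave a value. The other 15, which lost it under at least 1, were HAI2, CRT1B, FRO3, FVE, MIOX2, SVP, TIP1;2, LOX2, FER3, CSLA01, PORB, CYP82C4, SULTR4;1, TOC1 and PSBO1. The interaction of CSLA01 was -2.10 without replicate 3 of the 2014 morning, and that of CYP82C4 was -1.61 without replicate 2 of the 2013 evening.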

How the results depend on the processing

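No difference of a named gene that was called in either of the fits compared changed sign under an alternative, while uncalled differences did, such as those of GI, FKF1, NRT1.1, CHS and XTH4 in the evening. Of 6299 gene values recomputed, 5909 kept their side of the threshold, 327 lost a call and 63 gained one. Of 116 named genes called in the evening, 55 were called under every alternative that gave a value. With all libraries kept, MYB51 and UGT79B1 lost their evening calls with DESeq2 and with limma-trend. So did SEX4 and TIP2;1 with limma-trend, and MGD3 with DESeq2. The count of 969 evening calls was most affected by leaving out 1 library, which gave 339 to 849, with the value without each library in the report. Fitting the 6 evening libraries alone gave 1485 calls, of which 895 were among the 969. The other alternatives gave 799 calls with thinned libraries, 884 for genes with a mean of at least 5 CPM, 910 with no filter on low counts, 959 with DESeq2's size factors in edgeR, 964 with outdoor libraries alone, 973 without organelle loci, 1073 without replicate 1 of the 2014 morning, 1081 with DESeq2 and 1144 with limma-trend. With the replicate number as a replicate block the count was 883. Same-numbered evening libraries of the seasons deviated from their group means with correlations of 0.042, -0.045 and -0.025, so the numbers do not pair the samples. The 5834 morning calls ranged from 4606 to 5464 without 1 library each and from 4906 to 6680 otherwise, and the 3211 interaction calls from 2602 to 3209 and from 2913 to 3821. Depth limits the low genes: with 3 or fewer counts in a season (BHLH100, BHLH101, TAT3), the ratio has a wide interval. The list medians did not change with genes at 0 set to a bound, except in the seed storage list, where the median of -5.68 became -2.48. The members called in a list moved by over 1.5 times under at least 1 alternative in the lists given here with the range in brackets. A member that an alternative did not test counts there as not called. So the fall to 0 of the gibberellin list, and of the senescence list for members lower, is not a lost call. GA3OX2 and NAP were called wherever they were tested. Lists with 0 called in a direction and at most 1 under any alternative are not given. For members higher these were morning clock 1 (0 to 2), shade avoidance 1 (0 to 1), heat shock 1 (1 to 8), UV-B and high light 1 (0 to 4), iron deficiency 10 (6 to 11), nitrate response 2 (1 to 3), photosystems and carbon fixation 9 (1 to 14), chlorophyll synthesis 1 (1 to 3), sugar starvation and darkness 6 (2 to 9), starch 1 (1 to 2), senescence 0 (0 to 2), brassinosteroid 1 (0 to 1), gibberellin 1 (0 to 1), aquaporins 2 (0 to 3) and green leaf markers 1 (0 to 3). For members lower they were flowering promoters 2 (0 to 3), flowering repressors 1 (1 to 3), morning clock 0 (0 to 2), shade avoidance 3 (1 to 3), auxin response 3 (1 to 5), endoplasmic reticulum folding 5 (2 to 9), cold response 3 (3 to 6), flavonol and shared phenylpropanoid steps 1 (0 to 2), anthocyanin branch 5 (1 to 5), salicylic acid 4 (1 to 5), jasmonate and ethylene defence 4 (0 to 5), abscisic acid and drought 2 (1 to 6), aliphatic glucosinolates 1 (0 to 1), indolic glucosinolates 3 (0 to 4), copper and superoxide dismutase 1 (0 to 2), phosphate starvation 5 (0 to 7), starch 2 (1 to 4), senescence 1 (0 to 1), wall loosening 1 (0 to 2), brassinosteroid 2 (1 to 2) and floral organ markers 1 (0 to 1).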
